A study of Drosophila melanogaster with 12 samples.

Results

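The genes described are 8 genes of Drosophila melanogaster that make, convert or oxidise the precursors of cuticle tanning and pigment: ple, Ddc, b, e, t, y, stw and amd. They were taken by name and found in the table of counts by their FlyBase identifiers; all 8 of 8 were present among 17610 genes, and all 8 passed the filter on low counts that left 11060 genes for testing. RNA came from whole bodies of female flies of the Oregon genotype in 4 groups of 3 libraries: cisplatin (a platinum drug that binds DNA), TiO2 nanoparticles, cisplatin and TiO2 together (the combination), and control. All flies spent 3 days on food with yeast and a green dye, made up with water for the control and with solutions of the substances for the other groups. The labels conflict on the dose of each substance: the protocol for treatment gives 50 µg/ml, whereas titles give 50 mg/ml. Age and the number of flies in a library are not given in the labels, and nothing there says that replicates came from separate cultures, so the spread between replicates may be partly technical.

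Insect cuticle is tanned by catechols. Tyrosine is hydroxylated to DOPA, DOPA is decarboxylated to dopamine, and dopamine is either oxidised towards dark melanin or coupled to beta-alanine to give N-beta-alanyldopamine, which tans cuticle to a yellow or tan colour. Laccase oxidises these catechols in the cuticle, and the quinones formed cross-link cuticle proteins and chitin. The pathway is most active around moults and in the days after an adult emerges, and several of its enzymes also serve neurons and glia, where they make or inactivate dopamine, serotonin and histamine.

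Library totals lay between 26763042 and 46694769 counts. Some libraries stood apart in their marker sums. A list of 13 male transcripts summed to 1033 CPM in the combination library of replicate 2, and to between 0.328 and 5.61 CPM in the other 11 libraries. CPM stands for counts per 1000000 counts of the genes tested, with library sizes scaled by TMM. The control library of replicate 1 had the highest share of mitochondrial counts, 16.7%. Ovary markers had counts in every library, but in TiO2 replicate 1 the 8 of them summed to 770 CPM, against 7836 and 7832 CPM in TiO2 replicates 2 and 3, and the 5 fat body and yolk protein genes to 6438 CPM, against 20860 and 20820 CPM. In whole bodies, fewer cells of a type and less RNA per cell cannot be told apart in any of the values that follow.

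The enzymes that make dopamine were taken first. The gene ple (pale, FBgn0005626; chromosome 3L, 6713356 to 6719525) encodes tyrosine hydroxylase, the first and rate-limiting step. It had 11.6, 21.2 and 26.4 CPM in the cisplatin libraries of replicates 1 to 3, 49.0, 35.3 and 12.4 in TiO2, 12.6, 266 and 65.5 CPM in the combination, and 200.1, 168 and 16.7 CPM in control. Control replicates 1 and 2 and combination replicates 2 and 3 were the high libraries, and control replicate 3 and combination replicate 1 lay among the low ones, so that the range of every treated group overlapped that of control. Ddc (FBgn0000422; chromosome 2L, 19116483 to 19120306) encodes dopa decarboxylase, which forms dopamine and serotonin. It had 9.49, 12.15 and 11.3 CPM in cisplatin, 10.8, 11.25 and 10.65 in TiO2, 9.84, 46.45 and 16.6 CPM in the combination, and 25.7, 22.3 and 10.8 CPM in control. The same 4 libraries were the highest, while the other 8 lay within 9.49 to 12.15 CPM. Exons of Ddc and of CG10561 on the opposite strand share 88 bases, and the strand setting of the counting is not given in the sources used here, so a part of the Ddc count is uncertain.

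Next came the branch through beta-alanine. The gene b (black, FBgn0000153; chromosome 2L, 13821248 to 13823979) encodes an aspartate decarboxylase that makes beta-alanine. Its level was 13.75, 17.4 and 23.5 CPM in cisplatin, 25.8, 18.9 and 16.6 in TiO2, 13.4, 81.25 and 25.0 CPM in the combination, and 64.2, 52.1 and 18.98 CPM in control. The gene e (ebony, FBgn0000527; chromosome 3R, 21229839 to 21237177) encodes the synthase that couples beta-alanine to dopamine. It had 3.14, 5.01 and 2.89 CPM in cisplatin, 10.0, 5.23 and 1.34 in TiO2, 0.730, 57.5 and 13.6 CPM in the combination, and 35.2, 42.1 and 3.62 CPM in control. Among combination libraries e was thus 78.9-fold higher in replicate 2 than in replicate 1. The gene t (tan, FBgn0086367; chromosome X, 9217655 to 9223257) encodes the hydrolase of the reverse step, which frees dopamine again. It varied much less, with 9.06, 10.8 and 11.97 CPM in cisplatin, 9.44, 11.9 and 10.1 in TiO2, 9.48, 30.9 and 14.4 CPM in the combination, and 23.3, 19.6 and 9.42 CPM in control. For all 3 genes the highest values were in combination replicate 2 and control replicates 1 and 2, and no treated group was separate from control.

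The melanin gene and the oxidase follow. The gene y (yellow, FBgn0004034; chromosome X, 356509 to 361245) encodes a secreted protein needed for black melanin. It was the most variable of the 8 genes and rested on few reads in several libraries: 2, 63 and 20 counts in cisplatin, 139, 90 and 5 counts in TiO2, 9, 462 and 206 counts in the combination, and 705, 354 and 7 counts in control. In CPM this is up to 1.74 in cisplatin, 3.80 in TiO2, 14.02 in the combination and 25.8 in control. Low and high libraries were thus present within TiO2, the combination and control alike. The span of y overlaps CG32816 on the opposite strand, with no exonic base in common. The gene stw (straw, FBgn0286203; chromosome 2R, 5413744 to 5456095) encodes laccase 2, the oxidase that carries out tanning. It had 28.97, 32.5 and 28.4 CPM in cisplatin, 44.25, 27.9 and 23.35 in TiO2, 27.99, 87.2 and 48.1 CPM in the combination, and 93.2, 82.45 and 27.15 CPM in control. Its cisplatin libraries lay close together, above control replicate 3 and below the other control libraries.

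The gene amd (FBgn0000075; chromosome 2L, 19110154 to 19114110) encodes a protein of the same decarboxylase family as Ddc that is needed for cuticle formation. It lies 2372 bases from Ddc with 0 annotated genes between them, on the other strand. It was low in the libraries where the other members were high: 19.1, 8.89 and 14.55 CPM in cisplatin, 0.958, 6.46 and 21.2 in TiO2, 3.73, 2.55 and 2.30 CPM in the combination, and 1.87, 3.21 and 8.77 CPM in control. The lowest cisplatin library was just above the highest control library, which made amd the only member whose range did not overlap between a treated group and control; over all genes, 30.6% had separate ranges in that comparison. The cisplatin range was also separate from that of the combination, in a comparison where this held for 15.4% of all genes. In TiO2 the lowest and the highest amd values of all 12 libraries stood side by side in 1 group.

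**Figure D1:**
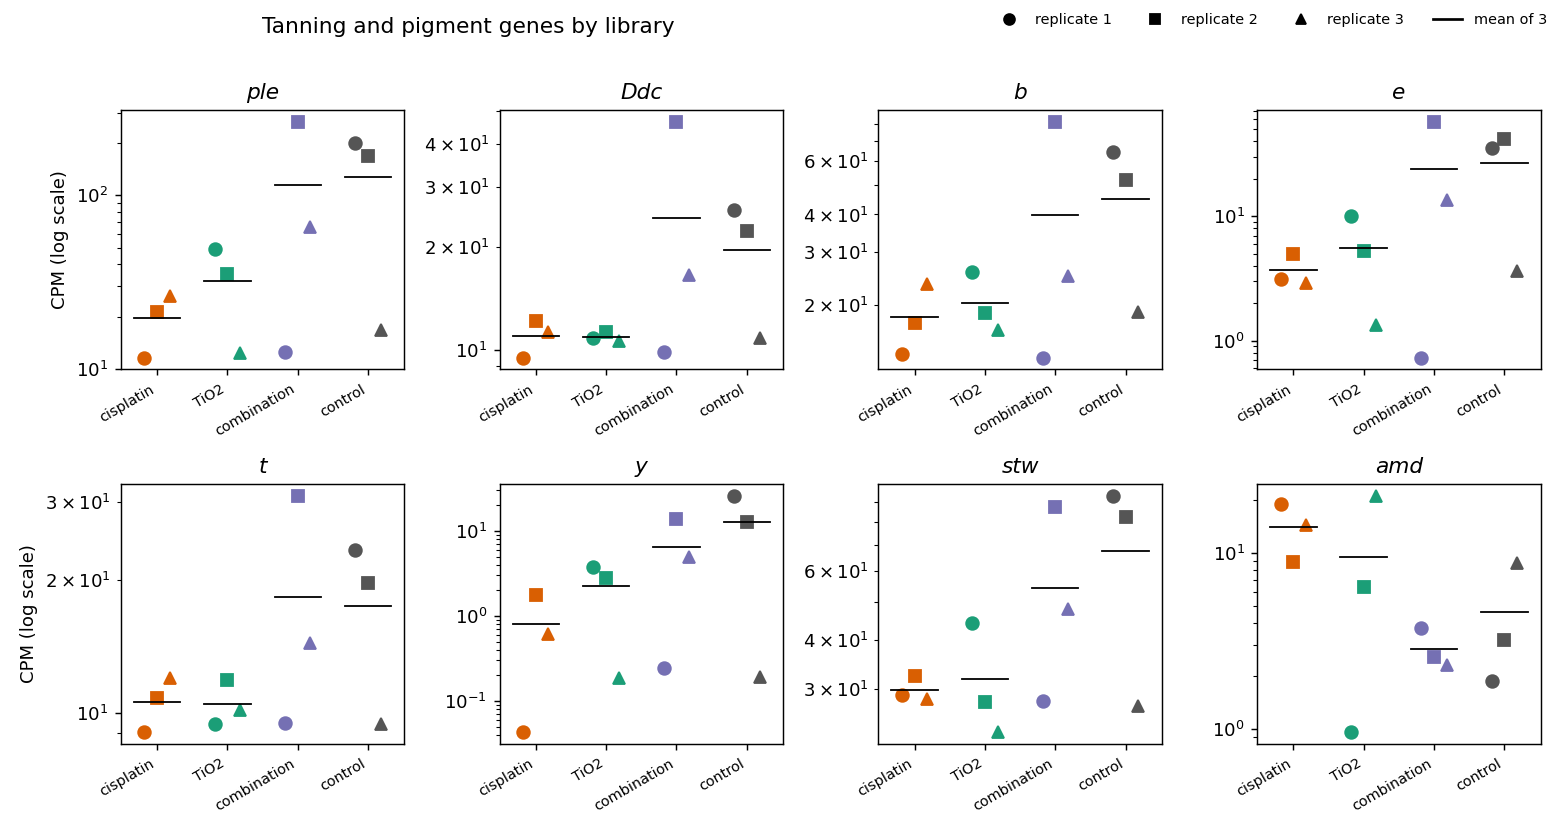
CPM of the 8 genes (log scale) in each library, by group; symbols mark replicates 1 to 3 and the bar is the mean of 3 libraries. In 7 genes the combination library of replicate 2 and the control libraries of replicates 1 and 2 stand high, while amd runs the other way.

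The first feature is the spread between replicates, which was wide for y, e, ple and amd and nearer to that of other genes for b, stw, Ddc and t. The pooled SD of log2 CPM within groups was 2.76 for y, 2.00 for e, 1.60 for ple, 1.28 for amd, 0.85 for b, 0.68 for stw, 0.67 for Ddc and 0.57 for t, while the median of all genes tested was 0.47. Of all genes tested, 0.669% had a larger spread than y, 1.84% than e, 3.68% than ple, 6.46% than amd, 16.7% than b, 28% than stw, 29.6% than Ddc and 39.3% than t. The spread was not equal among groups. For e it was 0.42 in cisplatin, 1.45 in TiO2, 3.15 in the combination and 1.96 in control, and for Ddc 0.18 in cisplatin, 0.04 in TiO2, 1.14 in the combination and 0.67 in control. Over all genes the medians were 0.13 in cisplatin, 0.18 in TiO2, 0.62 in the combination and 0.50 in control. Of the variance of log2 CPM between libraries, groups held from 21.5% (y) to 39.5% (amd), beside a median of 34.8% over all genes tested.

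The second feature is that 7 of the 8 genes shared an order of libraries. The 7 are all but amd, a division made after their values were seen. Control replicates 1 and 2 and combination replicates 2 and 3 were among the 5 highest of 12 libraries for each of the 7 genes, and TiO2 replicate 1 was for 5 of them. For amd, these 4 libraries ranked between 8 and 11. Over the 12 libraries the 21 pairs among the 7 genes had Pearson's r between 0.797 and 0.981 and Spearman's rho between 0.671 and 0.979. With permutation tests of 100000 resamples, adjusted by Benjamini-Hochberg over 28 pairs, the largest adjusted p among these 21 pairs was 0.000733 for r and 0.0213 for rho. Among other genes, r with a member reached 0.997 (Tsp, on none of the lists, with ple), so such values are not particular to the 7 genes. For deviations from the group means, pooled over the 4 groups, r lay between 0.788 and 0.976. The 7 genes spread most in the combination and control, which weigh most in these values. The order did not hold inside every group: in TiO2, t had 9.44, 11.9 and 10.1 CPM and stw 44.25, 27.9 and 23.35. After the 2 libraries farthest from the median of 1 gene of each pair were left out, r of the 21 pairs lay between 0.749 and 0.957. Without combination replicate 2 it lay between 0.817 and 0.976. Over the 8 libraries outside the 4 high ones the same pairs had r between -0.186 and 0.914 with a median of 0.648. The 4 were picked by the values of these same genes, and leaving them out narrows the range, which tends to lower r. These values therefore do not show which libraries a relation rests on. The lowest over the 8 were t and stw (r = -0.186), e and t (0.159) and Ddc and stw (0.189), while Ddc and t, with r = 0.981 over 12 libraries, had 0.696.

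The closest pair by rank was y and ple, a melanin gene and the enzyme at the head of the pathway, with r = 0.945 and rho = 0.979 (two-sided permutation tests, adjusted p = 4e-05 and 0.00028). The smallest p that these permutations can give is 1e-05 before adjustment. Over the 12 libraries, pairs with amd were all negative. Among them y and amd had r = -0.759 and rho = -0.825 (adjusted p = 0.00714 and 0.00308 by permutation), and ple and amd had r = -0.696 and rho = -0.790 (adjusted p = 0.0157 and 0.00527 by permutation). Ddc and amd, neighbours on the chromosome, had r = -0.501 and rho = -0.559, which did not pass (adjusted p = 0.101 and 0.0651 by permutation). Of the 7 pairs with amd, 4 passed by r and 5 by rho. In the pairs of amd with y, ple and Ddc, the 2 libraries left out were those farthest from the median of the partner gene. There r became -0.66 for y and amd, -0.644 for ple and amd and -0.399 for Ddc and amd. In the pairs with t, b, stw and e, the 2 libraries left out were those farthest from the median of amd. There r was -0.725 for t and amd, -0.674 for b and amd, -0.77 for stw and amd and -0.626 for e and amd. Because the libraries were left out by different genes, these changes of r cannot be compared between the pairs. Over the 8 libraries outside the 4 high ones, r with amd ran from -0.809 (stw) to 0.22 (t). The median there was -0.424, and Ddc and amd had -0.063.

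**Figure D2:**
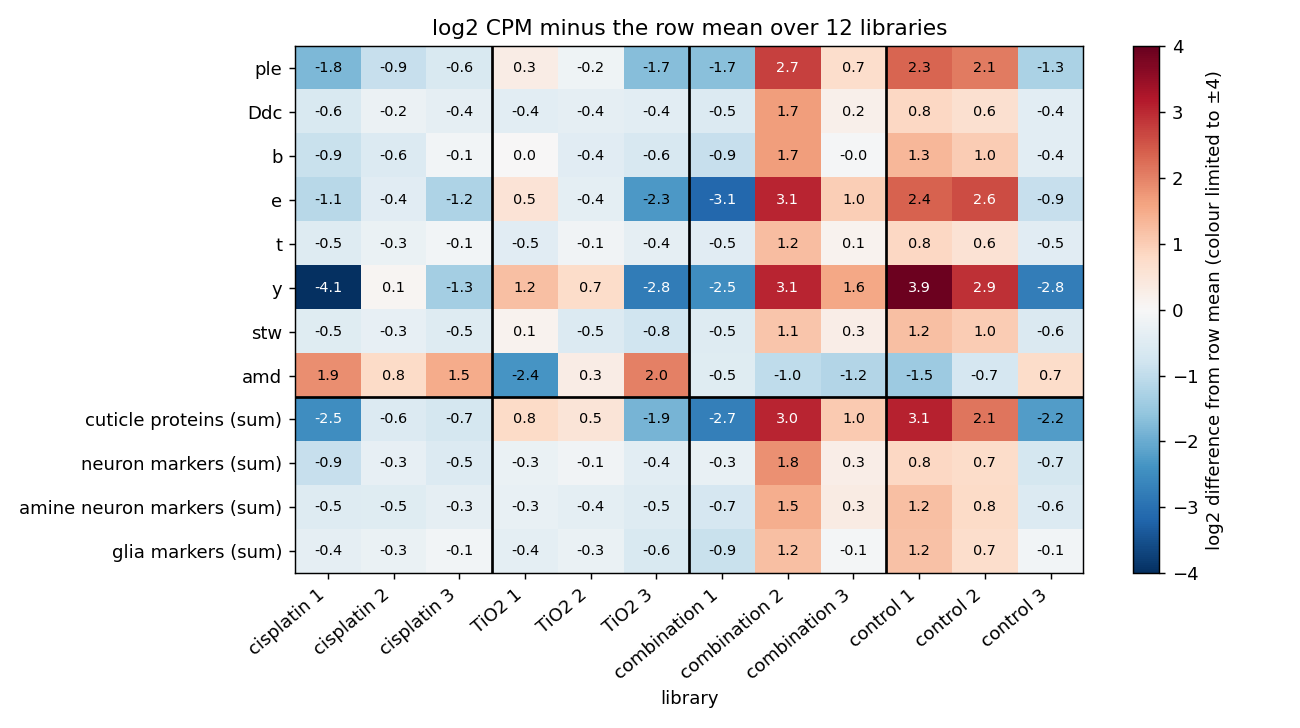
Difference of log2 CPM from the row's mean over 12 libraries, for the 8 genes and for 4 summed lists of other genes; columns are libraries by group and the colour scale is limited to 4 on either side. Red columns for combination replicate 2 and control replicates 1 and 2 run through 7 genes and the summed lists, and amd is blue there.

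**Figure D3:**
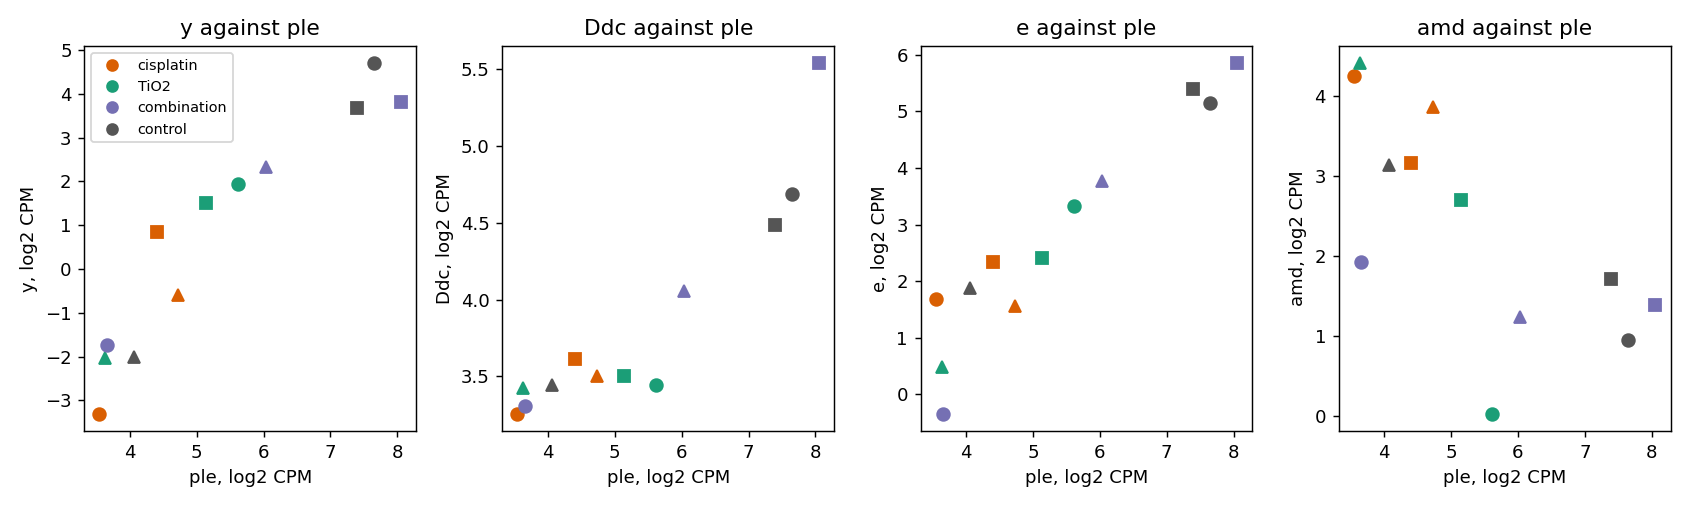
Log2 CPM of y, Ddc, e and amd against that of ple, 1 point per library; colours are groups, and circles, squares and triangles are replicates 1, 2 and 3. y and e rise along the whole range of ple, Ddc is flat over the 8 low libraries, and amd falls.

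Levels were compared between genes as CPM per kb of counted length. In cisplatin the order of mean levels was b (8.54 ± 2.32 CPM per kb, SD, n = 3), amd (6.37 ± 2.29), t (5.37 ± 0.741), ple (5.18 ± 1.97), stw (4.61 ± 0.341), Ddc (3.92 ± 0.484), e (1.17 ± 0.370) and y (0.392 ± 0.425). In control it was ple (33.7 ± 25.7 CPM per kb, SD, n = 3), b (21.1 ± 10.97), stw (10.4 ± 5.46), t (8.84 ± 3.64), e (8.58 ± 6.53), Ddc (7.01 ± 2.79), y (6.32 ± 6.29) and amd (2.08 ± 1.65). In the combination ple led with 30.1 ± 35.1 CPM per kb, before b with 18.7 ± 17.0, and in TiO2 b led with 9.56 ± 2.25, before ple with 8.47 ± 4.87 (SD, n = 3). Neighbours in each order differed by less than their spreads, except Ddc and e in cisplatin (3.92 ± 0.484 and 1.17 ± 0.370) and in TiO2 (3.901 ± 0.110 and 1.76 ± 1.38), whose levels differed by more than the sum of their SDs.

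Ratios within a library do not depend on its scaling. The ratio of e to t, which catalyse opposite steps, was 0.218, 0.292 and 0.152 in the cisplatin libraries, 0.667, 0.277 and 0.0832 in TiO2, 0.0484, 1.17 and 0.593 in the combination, and 0.951, 1.35 and 0.242 in control, per counted length. The synthase was thus above the hydrolase in 1 combination and 1 control library. The ratio of ple to Ddc, successive steps, was 0.899, 1.28 and 1.72 in cisplatin, 3.33, 2.30 and 0.853 in TiO2, 0.939, 4.21 and 2.90 in the combination, and 5.73, 5.53 and 1.14 in control. It was above 4 in the same 3 libraries that were highest in Ddc itself. The ratio of amd to Ddc was 2.53, 0.920 and 1.62 in cisplatin, 0.111, 0.722 and 2.51 in TiO2, 0.477, 0.0690 and 0.174 in the combination, and 0.0915, 0.181 and 1.02 in control.

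Cisplatin was compared with control to ask what the drug alone did to these genes. With Benjamini-Hochberg adjustment over all genes and a threshold of 0.05, edgeR's quasi-likelihood test called none of the 8 members and 0% of all genes; DESeq2 called 0 members and 1.98% of all genes. Fitted log2 fold changes were negative for 7 members and positive for amd, with a median of -1.24 over the members and of -0.03 over all genes tested. They were -4.02 (SE 1.82) for y, -2.87 (SE 1.29) for e, -2.70 (SE 1.08) for ple, -1.31 (SE 0.62) for b, -1.17 (SE 0.49) for stw, -0.84 (SE 0.50) for Ddc and -0.72 (SE 0.43) for t. The value for amd was 1.61 (SE 0.89). Adjusted p-values from edgeR lay between 0.270 and 0.302. At an unadjusted p under 0.05, 3 members were lower (ple, stw and e), in a background of 15% of genes lower. Mean levels in cisplatin and control were 19.7 ± 7.51 and 128 ± 97.9 CPM for ple, 3.68 ± 1.16 and 26.97 ± 20.5 CPM for e, and 14.2 ± 5.10 and 4.62 ± 3.66 CPM for amd (SD, n = 3 each).

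TiO2 against control gave the same signs. None of the members passed in edgeR (0% of all genes; adjusted p from 0.300 to 0.404) or in DESeq2 (3.45% of all genes), no member had a range separate from control (26.2% of all genes), and 1 member, stw, was lower at an unadjusted p under 0.05, in a background of 12.8%. Log2 fold changes were -2.51 (SE 1.69) for y, -2.28 (SE 1.26) for e, -1.99 (SE 1.06) for ple, -1.14 (SE 0.62) for b, -1.09 (SE 0.49) for stw, -0.84 (SE 0.50) for Ddc and -0.74 (SE 0.43) for t. For amd it was 1.04 (SE 0.87), and -0.32 without TiO2 replicate 3. This comparison and the one before share their 3 control libraries, so equal signs are not independent of each other. In the authors' deposited table the log2 fold changes for TiO2 ran from -2.43 (y) to 1.08 (amd), with adjusted p from 0.116 (e) to 0.364 (amd). In the authors' deposited table for cisplatin they ran from -3.99 (y) to 1.62 (amd), with adjusted p from 0.135 (ple) to 0.345 (t).

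The combination was close to control in the fitted values, with large errors. Log2 fold changes lay between -1.01 (y, SE 1.61) and 0.31 (Ddc, SE 0.50), and edgeR's adjusted p was between 0.952 and 0.984, while 0% of all genes passed. DESeq2 called 0 members and 1.01% of genes. None of the members had an unadjusted p under 0.05, in a background of 7.09% of genes, or a range separate from control, in a background of 6.83%. Mean levels in the combination and control were 114.7 ± 134 and 128 ± 97.9 CPM for ple, 23.9 ± 29.8 and 26.97 ± 20.5 CPM for e, 24.3 ± 19.5 and 19.6 ± 7.80 CPM for Ddc, and 2.86 ± 0.764 and 4.62 ± 3.66 CPM for amd (SD, n = 3 each). Single libraries moved these values. When combination replicate 2, in which male transcripts were found, was left out, the log2 fold change was -1.91 for e, -1.71 for ple, -1.23 for b, -0.57 for Ddc and -0.55 for t. Those of Ddc and t were positive with all libraries. Without combination replicate 1 the values of ple, e and b turned positive (0.37, 0.40 and 0.24). Without control replicate 1 the value of y was -0.0058, and without control replicate 3 that of amd was 0.17.

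**Figure D4:**
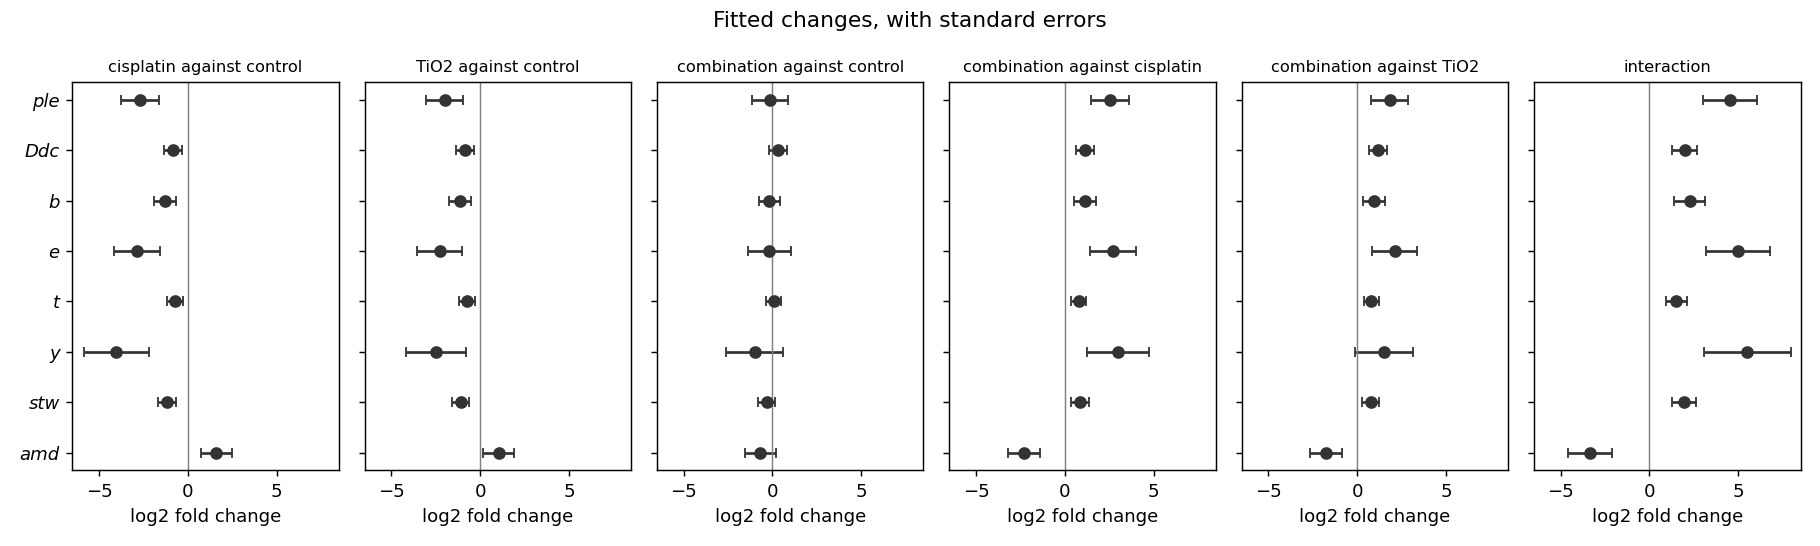
Fitted log2 fold changes (points) and standard errors (bars) of the 8 genes in 6 comparisons; the grey line is 0. In both single treatments 7 genes lie left of 0 and amd right of it, and in the interaction the sides are exchanged.

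The combination was also set against each single treatment. Against cisplatin 0 members passed in edgeR (0% of all genes) or in DESeq2 (0.37% of genes), with 7 values above 0 and amd below it. Log2 fold changes were 3.01 (SE 1.74) for y, 2.70 (SE 1.28) for e, 2.54 (SE 1.08) for ple, 1.15 (SE 0.50) for Ddc, 1.13 (SE 0.62) for b, 0.86 (SE 0.49) for stw, 0.78 (SE 0.43) for t and -2.31 (SE 0.91) for amd. At an unadjusted p under 0.05 there were 2 higher members, ple and Ddc, and 1 lower, amd, in backgrounds of 13.4% and 1.01% of genes. Without combination replicate 2 the values were 0.99 for ple, 0.96 for e, 0.08 for b, 0.27 for Ddc, 0.17 for t, 0.35 for stw and 1.71 for y. Against TiO2 0 members passed in edgeR (0% of all genes) or in DESeq2 (0.0207%), 0 had separate ranges (6.56%), and Ddc alone had an unadjusted p under 0.05, in a background of 6.58% of genes higher. The values there lay between 0.77 (stw) and 2.11 (e) for 7 members and were -1.74 (SE 0.89) for amd. Without combination replicate 2 they were 0.37 for e, 0.28 for ple, 0.28 for Ddc, 0.20 for y, 0.26 for stw, 0.19 for t and -0.0887 for b. Without TiO2 replicate 3 the value for amd was -0.37.

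The interaction asks whether the combination departs from the sum of both single changes on the log2 scale. With all libraries 0 members passed in edgeR (0% of all genes), with adjusted p between 0.129 and 0.153. All 8 members had an unadjusted p under 0.05, 7 positive and amd negative, in a background of 26.7% of genes positive and 4.98% negative. The log2 values were 5.51 (SE 2.43) for y, 4.98 (SE 1.80) for e, 4.53 (SE 1.51) for ple, 2.27 (SE 0.87) for b, 1.99 (SE 0.71) for Ddc, 1.95 (SE 0.69) for stw, 1.52 (SE 0.61) for t and -3.35 (SE 1.26) for amd. Single libraries decided whether the threshold was reached and how large the values were. Without combination replicate 2 the interaction was 2.98 for ple, 3.24 for e, 1.22 for b, 1.11 for Ddc, 0.90 for t, 1.43 for stw and 4.22 for y, and without TiO2 replicate 3 it was -1.99 for amd. Without combination replicate 1, 6 members passed (ple, Ddc, e, b, t and stw; adjusted p from 0.0368 to 0.0419) and 2840 genes in all. Without control replicate 3, 3 members passed (ple, Ddc and stw; adjusted p from 0.0473 to 0.0487) and 1975 genes in all. In the other 10 fits that left out 1 library, 0 members passed. DESeq2 with all libraries called 2 members, ple and e (adjusted p 0.0324 and 0.0404), in a background of 11.7%.

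**Figure D5:**
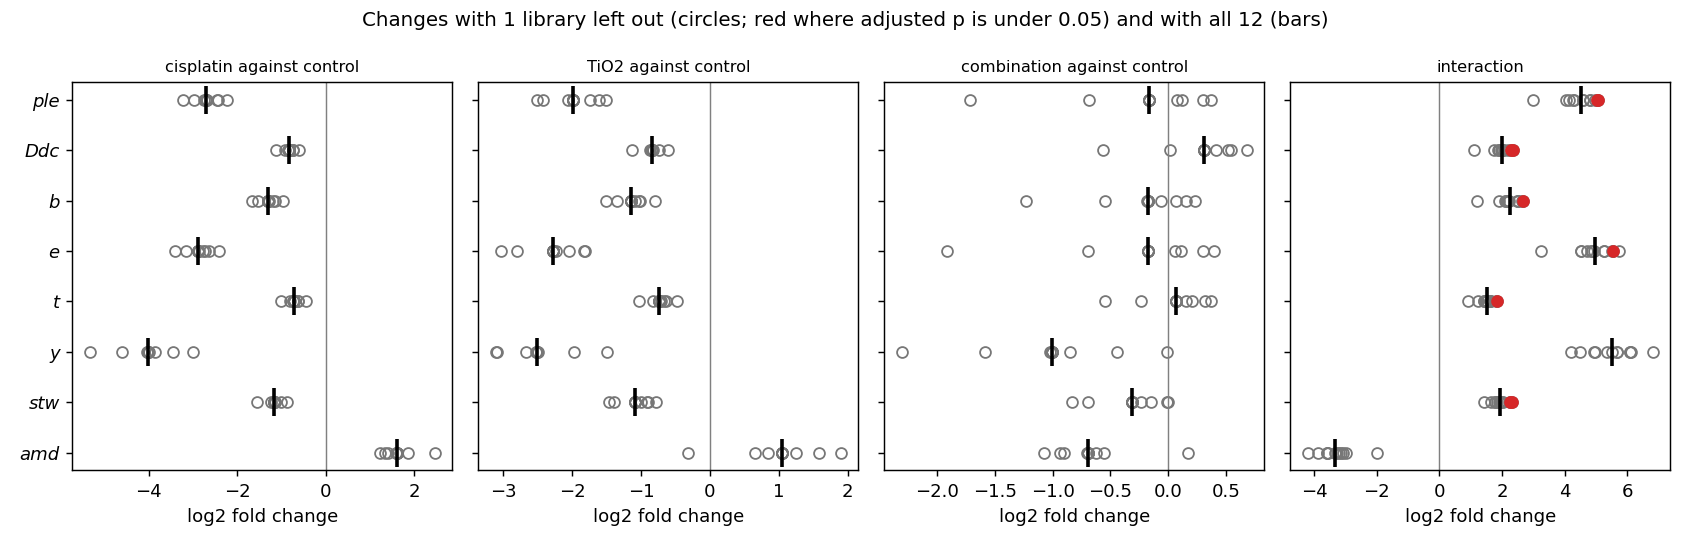
Log2 fold changes of the 8 genes with all libraries (black bars) and in 12 fits that each left out 1 library (circles, red where edgeR's adjusted p was under 0.05), for the 3 treatments against control and for the interaction. Red circles appear in the interaction panel for 6 genes, and the combination panel has circles on both sides of 0 for 7 genes.

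Giving libraries unequal weight changed many calls. Limma voom with sample weights gave control replicates 1 to 3 weights of 0.279, 4.69 and 0.116. It gave combination replicates 1 to 3 weights of 0.355, 0.0623 and 6.48, so its combination values rest mostly on replicate 3. At an adjusted p under 0.05, 7 members were lower with both cisplatin and TiO2. At that threshold 4026 of 11060 genes were lower with cisplatin and 3982 with TiO2, while 73.6% and 71.5% were called in any direction. In this fit amd did not pass with cisplatin or with TiO2 (log2 fold change 2.01 and 1.57, adjusted p 0.0587 and 0.152). For the combination against control 6 members were called, all lower, beside 3073 genes lower and 58.4% called in any direction. Against cisplatin the same fit called 4 members for the combination (23.7%), and against TiO2 0 (3.15%). The interaction had all 8 members called, in a background of 72%.

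Other genes of the pathway were taken from lists chosen for their function. None passed in edgeR in any of the 6 comparisons. The supply of the tetrahydrobiopterin cofactor of tyrosine hydroxylase begins with Pu (Punch, GTP cyclohydrolase). Its level was 19.5, 22.6 and 27 CPM in cisplatin, 34.0, 32.5 and 22.6 in TiO2, 17.2, 161 and 47.7 CPM in the combination and 127, 91.8 and 29.6 CPM in control, with the same 4 high libraries as ple; Pu was chosen after its values were seen. Dhpr (dihydropteridine reductase), which recycles the cofactor, showed no such spread: 59.15, 53.6 and 56.9 CPM in cisplatin, 52.7, 54.1 and 55.3 in TiO2, 49.4, 48.4 and 52.1 CPM in the combination and 74.1, 62.6 and 66.4 CPM in control. Its combination libraries were all below the control libraries (log2 fold change -0.44, SE 0.12, edgeR adjusted p 0.600, DESeq2 adjusted p 9.89e-06), as were its cisplatin and TiO2 libraries. Over all genes, ranges were separate from control in either direction for 6.83% with the combination, 30.6% with cisplatin and 26.2% with TiO2.

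Beta-alanine can also come from uracil breakdown, begun by su(r) (dihydropyrimidine dehydrogenase). It had 32.4, 32.6 and 45.5 CPM in cisplatin, 31.25, 40.97 and 27.1 in TiO2, 34.4, 66.4 and 42.8 CPM in the combination, and 75.45, 51.95 and 48.5 CPM in control. Both single treatments lay below control in every library. Over all genes, 30.6% had ranges separate from control in either direction with cisplatin and 26.2% with TiO2. For TiO2 the log2 fold change of su(r) was -0.82 (SE 0.29, edgeR adjusted p 0.300, DESeq2 adjusted p 0.111). The list of beta-alanine supply has 4 genes and also holds Gad1, a glutamate decarboxylase. All 4 were lower by fitted value with cisplatin (median -0.94) and with TiO2 (median -0.98), beside 5676 and 5965 of all 11060 genes tested. Acetylation is the other fate of dopamine. The gene speck, an arylalkylamine N-acetyltransferase chosen here after its values were seen, had 47.8 ± 3.65 CPM in cisplatin, 48.2 ± 7.41 in TiO2, 85.7 ± 66.7 in the combination and 131 ± 72.7 in control (SD, n = 3).

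The yellow family, 13 genes related to y of which 10 were tested, had medians of -1.22 with cisplatin and -1.40 with TiO2, and 8 of the 10 were lower by fitted value in each. At an unadjusted p under 0.05, 7 of the 10 were lower with cisplatin and 7 with TiO2, against 15% and 12.8% of all genes. The genes yellow-g and yellow-g2, which act in ovarian follicle cells, had fitted values above 0 in both comparisons, each smaller than its SE. With cisplatin they were 1.33 (SE 1.56) and 1.60 (SE 1.75), and with TiO2 0.08 (SE 1.54) and 0.47 (SE 1.71). yellow-d2 had 1.97, 1.88 and 2.07 CPM in cisplatin, 6.38, 3.47 and 2.05 in TiO2, 1.65, 27.9 and 12.45 CPM in the combination and 42.9, 26.7 and 1.33 CPM in control, a log2 fold change of -3.58 with cisplatin (SE 1.16; edgeR adjusted p 0.270, DESeq2 adjusted p 0.0416). yellow-d lay in a narrower range, with 18.5 ± 1.94 CPM in cisplatin, 16.6 ± 0.952 in TiO2, 21.3 ± 7.83 in the combination and 31.9 ± 6.05 in control (SD, n = 3). All cisplatin and all TiO2 libraries were below all control libraries, beside 30.6% and 26.2% of all genes with separate ranges in either direction. The log2 fold change of yellow-d with TiO2 was -0.94 (SE 0.26, edgeR adjusted p 0.282, DESeq2 adjusted p 0.0246). Of the other multicopper oxidases, Mco1 had 10.8 ± 1.93 CPM in cisplatin, 7.43 ± 0.995 in TiO2, 9.80 ± 3.53 in the combination and 20.9 ± 9.46 in control (SD, n = 3), and its log2 fold change with TiO2 was -1.49 (SE 0.37; edgeR adjusted p 0.277, DESeq2 adjusted p 0.0152).

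Chitin synthesis and cuticle assembly made up another list. Of 14 genes, 13 were lower by fitted value with cisplatin, with a median log2 fold change of -3.58, and 12 of them at an unadjusted p under 0.05, against 15% of all genes; DESeq2 called 5, against 1.98% of all genes. With TiO2 the median was -2.20 and with the combination -0.08. Cht5, a chitinase of the moult, had 2.79, 3.71 and 4.31 CPM in cisplatin, 11.99, 2.49 and 2.94 in TiO2, 2.68, 102 and 24.3 CPM in the combination and 87.8, 50.5 and 4.25 CPM in control. Its interaction was 6.60 (SE 1.80; edgeR adjusted p 0.129, DESeq2 adjusted p 0.00780). The transporter gene ine (inebriated) had an interaction of 2.29 (SE 0.63; edgeR adjusted p 0.129, DESeq2 adjusted p 0.0245), and yellow-d2 one of 5.40 (SE 1.58; edgeR adjusted p 0.129, DESeq2 adjusted p 0.0178). In the combination against cisplatin, the chitin deacetylase genes Cda5 and Cda4 had log2 fold changes of 3.28 (SE 1.14) and 5.39 (SE 1.93). The edgeR adjusted p was 0.334 for both, and the DESeq2 adjusted p was 0.113 and 0.0709. Without combination replicate 2 their log2 fold changes were 1.70 and 3.56. The gene of a chitin-binding protein, obst-E, had -2.05 with cisplatin against control (SE 0.66, edgeR adjusted p 0.270, DESeq2 adjusted p 0.0678). Hn, phenylalanine hydroxylase, had 0.57 (SE 0.22, edgeR adjusted p 0.617, DESeq2 adjusted p 0.746) in the combination against TiO2. Gad1, glutamate decarboxylase, had 17.7 ± 2.81 CPM in cisplatin, 23.7 ± 3.96 in TiO2, 77.8 ± 78.5 in the combination and 54.1 ± 34.8 in control (SD, n = 3).

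Structural cuticle proteins, a list of 124 genes that holds none of the members, varied with them by library. Their summed level was 117, 448 and 408 CPM in cisplatin, 1137, 951 and 181 in TiO2, 99.3, 5428 and 1369 CPM in the combination, and 5623, 2896 and 141 CPM in control. Marker lists of nerve tissue moved as well. The 4 neuron markers summed to 90.1 to 137 CPM in cisplatin, 127 to 155 in TiO2, 140.2 to 604 CPM in the combination and 104 to 307 CPM in control. The 4 markers of dopamine and serotonin neurons (Vmat, DAT, SerT and Trhn) summed to 24.0 to 27.2 CPM in cisplatin, 24.4 to 28.4 in TiO2, 21.8 to 94.4 CPM in the combination and 23.5 to 79.9 CPM in control, and the 5 glia markers to 233 to 281 CPM in cisplatin, 199 to 249 CPM in TiO2 flies, 161 to 691 CPM in the combination and 277 to 674 CPM in control. Every marker of these 3 lists had counts in every group. Crystal cell and hemocyte markers moved less, from 34.8 CPM in a TiO2 library to 111 CPM in a control library. Ovary markers summed to 8163 to 11550 CPM in cisplatin, 770 to 7836 CPM in TiO2 flies, 1118 to 5108 CPM in the combination and 2213 to 8944 CPM in control. Fat body and yolk genes summed to 16690 to 24240 CPM in cisplatin, 6438 to 20860 CPM in TiO2 flies, 9785 to 15690 CPM in the combination and 11060 to 16690 CPM in control. TiO2 replicate 1, the lowest library in both lists, was also the lowest in amd. TiO2 replicates 2 and 3, nearly equal to each other in both lists, had 6.46 and 21.2 CPM of amd. The part of these tissues in the levels of the 8 genes was not tested.

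The genes most like each member were found by Pearson's r of log2 CPM over the 12 libraries among 8249 genes with a mean of at least 5 CPM. For y they were CG31904 (0.978), Acp1 (0.978), an adult cuticle protein, and Cpr62Bc (0.975), a chitin-binding cuticle protein. For ple they were Tsp (0.997), the fly thrombospondin, CG1136 (0.994) and pot (0.992), an apical matrix protein that anchors cuticle. For e they were obst-B (0.973), verm (0.969) and CG4115 (0.968), of which obst-B binds chitin and verm is a chitin deacetylase. For stw they were CG13082 (0.986), Jhbp7 (0.985) and qsm (0.984). The nearest to Ddc were axed, RSG7 and elB (0.986 each), to b fz2, Ac78C and Hil (0.987 each), and to t Fas2 (0.990), if (0.989) and sbm (0.988). Fas2 is a neural adhesion molecule, if an integrin subunit and fz2 a Wnt receptor. For amd they were Nep2 (0.972), a neprilysin protease, CG9747 (0.934) and CG32645 (0.930). These values describe likeness across libraries that share depth and scaling.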

How the data were processed

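For 12 libraries, 1 deposited table holds raw read counts of each gene; per the file headers its columns are those of featureCounts, while the submitters' processing notes name FastQC, Trimmomatic, BWA, SAMtools and HTSeq without versions. The genome build, annotation and strand setting are not given in the sources used here. Coordinates are those of the count table and were identical in the Ensembl annotation of assembly BDGP6 for all 8 members and for 17589 of 17610 genes. The authors also deposited log2 fold changes with p-values and adjusted p-values for 3 comparisons, per the file headers in DESeq2's format. Genes were tested with edgeR 4.0.16 (R 4.3.3): filterByExpr on the 4 groups, TMM, 1 quasi-likelihood model with 4 group means over 12 libraries, 6 contrasts, and Benjamini-Hochberg adjustment over 11060 genes at 0.05. SE is the log2 fold change divided by the root of its F. Log2 CPM used a prior count of 2. DESeq2 1.42.0 and limma 3.58.1 served as alternatives, with other scalings, no filter, a replicate block and each library left out. The fit was tested on simulated data. Named genes are the 8 members, up to 3 listed pathway genes per comparison with the smallest p and at least 5 CPM, and the 3 genes most like each member. Pu, speck, PPO1, PPO2, yellow-g and yellow-g2 fall outside this rule and were chosen after their values were seen. Of the lists, 1 ovary marker was not analysed here. Members, lists and tests were chosen with earlier results of these data known. Counting error aside, 3 libraries a group limit the precision.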

Additional observations from a re-analysis of the deposited data

How the results depend on the processing

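With edgeR and all libraries 0 genes and 0 members passed in each of the 6 comparisons, and this held with RLE or upper quartile factors, without the filter on low counts and, for the 5 comparisons of 2 groups, with only the groups compared. Upper quartile factors shifted the median change of all genes by -0.20 for cisplatin, -0.19 for TiO2 and 0.32 for the interaction, and no member changed sign under that scaling. DESeq2 called 212 genes for cisplatin, 369 for TiO2 and 102 for the combination against control, 38 for the combination against cisplatin, 3 against TiO2 and 1279 for the interaction; members were among them in the interaction, with 2. In voom with sample weights these counts were 8136, 7905, 6462, 2618, 348 and 7963 genes, of which 7, 7, 6, 4, 0 and 8 were members. With 1 library left out, the number of genes called ranged from 0 to 14 for TiO2 (14 without combination replicate 2), from 0 to 4 for the combination against control (4 without combination replicate 2) and from 0 to 2840 for the interaction, and members called in the interaction from 0 to 6.

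Signs changed in the combination against control. With 1 library left out, the log2 fold change ranged from -1.71 to 0.37 for ple, -1.91 to 0.40 for e, -1.23 to 0.24 for b, -0.57 to 0.69 for Ddc, -0.55 to 0.38 for t, -0.83 to 0.001 for stw and -1.08 to 0.17 for amd. It ranged from -0.32 to 1.91 for amd in TiO2 against control, and from -0.0887 to 1.38 for b in the combination against TiO2. Voom with sample weights gave combination replicate 3 a weight of 6.48, and replicates 1 and 2 weights of 0.355 and 0.0623. There Ddc had -0.44 (adjusted p 0.0262) and t -0.46 (adjusted p 0.0199) in the combination against control. The cause of these changes was not tested beyond the library left out.

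Replicate numbers did not pair the libraries: deviations of same-numbered libraries correlated with between -0.74 and 0.47, 6 of 18 such correlations were over 0.1, and the best match had the same number in 10 of 36 cases. With the replicate block 0 genes and 0 members passed in each of the 6 comparisons, and t in the combination against control had -0.0146 in place of 0.07. Low counts limited y most, with 2 to 9 counts in 4 libraries.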

Other observations

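Eye pigment genes, the ommochrome and pteridine pathways, were set beside the cuticle genes. All 11 were tested and 0 passed in edgeR in any comparison. With cisplatin 9 of 11 were lower than in control by fitted value, with a median of -0.39, and with TiO2 10 of 11, with a median of -0.55; at an unadjusted p under 0.05 there was 1 lower in each, beside 15% and 12.8% of all genes. The medians over all genes tested were -0.03 and -0.08.

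Regulators of tanning comprised 10 genes, of which 9 were tested; rk is the bursicon receptor, and grh, Abd-B, bab1 and bab2 are transcription factors. All 9 were lower by fitted value with cisplatin (median -0.96) and with TiO2 (median -0.85), and 4 of them with cisplatin and 2 with TiO2 at an unadjusted p under 0.05, beside 15% and 12.8% of all genes lower. In the combination against control 5 of 9 were lower, with a median of -0.01. The amine and beta-alanine transporters, 5 of 6 tested, had medians of -1.09, -1.03 and -0.09 in these 3 comparisons. Their interaction was between 1.91 and 2.29 in all 5, each at an unadjusted p under 0.05 in edgeR, beside 26.7% of all genes positive. Vmat, DAT and SerT of this list are also among the markers of dopamine and serotonin neurons, so the 2 lists are not separate observations.

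The prophenoloxidase genes PPO1 and PPO2, chosen after their values were seen, whose products melanise wounds rather than cuticle, had fitted log2 fold changes of 1.32 and 1.04 with cisplatin and of -0.46 and -0.38 with TiO2, each against control. None passed in edgeR (adjusted p from 0.270 to 0.505).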
